A study of Anser cygnoides with 9 samples.

Results

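Transcripts of 19 genes of the transcription and RNA processing machinery were examined in cultured goose granulosa cells, out of 1371 genes in the deposited table. They were taken by symbol: every gene whose name begins with POLR, GTF, TAF, INTS, CPSF, SNRP, SRSF, SF3, PRPF, LSM, HNRNP, DDX, DHX or EXOSC, or with MED and a digit, plus TXNL4B, with SF3B5 left out. The members were GTF2E2, GTF2H5 and GTF3C5, TAF8, the Mediator subunits MED8, MED14, MED16, MED22 and MED27, INTS12, CPSF3, TXNL4B, SRSF5A and SRSF10, HNRNPH3, DDX41, DDX42 and DDX54, and EXOSC10. The table held no other gene under the prefixes POLR, SNRP, SF3, PRPF, LSM or DHX, so whole complexes such as RNA polymerase itself and the snRNP cores are not analysed here.

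The libraries fell into 3 groups of 3. One group received the GnRH agonist alarelin acetate and one the GnRH antagonist cetrorelix acetate, both peptide analogues of gonadotropin-releasing hormone, and the third, the blank group, was the control. All 9 came from ovarian granulosa cells, the steroid-producing cells around the oocyte, of Sichuan white geese aged 40 weeks. The labels name small and large yellow follicles, and the study's description names preovulatory and pre-hierarchical ones, the second kind 4 to 12 mm across. Concentrations were chosen in proliferation assays, but neither they nor the hours of exposure were given with the labels. It is not stated that replicates are different geese or different cultures. The p-values below therefore speak of differences between libraries, whose spread could be technical.

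Transcription by RNA polymerase II begins when general factors such as TFIID, TFIIE and TFIIH assemble on a promoter, with Mediator carrying signals from activators to them. The nascent RNA is then spliced by the spliceosome, with SR proteins and hnRNP proteins steering the choice of splice sites, cut and polyadenylated at its end by the CPSF complex, and proofread or degraded by the nuclear exosome. DEAD-box helicases remodel RNA and protein at many of these steps. These are housekeeping functions of every cell, granulosa cells included.

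Levels are in TPM, an abundance unit that corrects for transcript length and lets genes be set side by side. All 1371 genes together held 2.88% to 3.26% of a library's TPM, and the read depth behind the values is unknown. A gene was tested when it reached 1 TPM in 3 or more libraries, which kept 832 of 1371 genes and 16 of the 19 members. MED14, DDX54 and MED27 were not tested. GTF2E2 reached 1 TPM in 4 libraries, the antagonist libraries and blank replicate 1, so it entered the test through the libraries in which it was high. The description labels carry 3 identifiers in the form of Illumina flow cells. Agonist replicate 1 and antagonist replicate 2 carry H75K3DMXX. H77KGDMXX marks 4 libraries, namely the second agonist one, the first and last antagonist ones and blank replicate 1. The last agonist library shares H773TDMXX with the other two blank libraries. Of 14 granulosa cell markers looked for, follistatin (FST) was listed, at 39.8 to 47.8 TPM in agonist, 51.7 to 53.4 TPM in antagonist and 48.0 to 53.7 TPM in blank libraries. One gene each was listed from the markers of stroma (TCF21), germ cells (ZP1) and endothelium (CDH5), all under 1 TPM in every library. The measured RNA is that of whole cultures, so fewer cells of a type and less RNA per cell cannot be told apart.

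The members spanned a wide range of levels. HNRNPH3, a member of the hnRNP H family that binds G-rich RNA, was the most abundant at a mean of 99.9 TPM over the 9 libraries, and took 34.3% to 45.0% of the summed TPM of all 19 members. It was followed by TXNL4B (24.1 TPM), SRSF5A (22.8), DDX41 (22.4), SRSF10 (22.3), MED16 (19.0) and EXOSC10 (11.5), which completed the 7 members at 10 TPM or more. A further 9 members lay between 1 and 10 TPM and the 3 untested ones below 1 TPM. The median member had a mean of 3.42 TPM, against 1.62 TPM for the whole table. The splicing and helicase genes held 5 of the first 5 places, while the general transcription factors, the TFIID subunit and every Mediator subunit except MED16 averaged under 4 TPM.

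**Figure D1:**
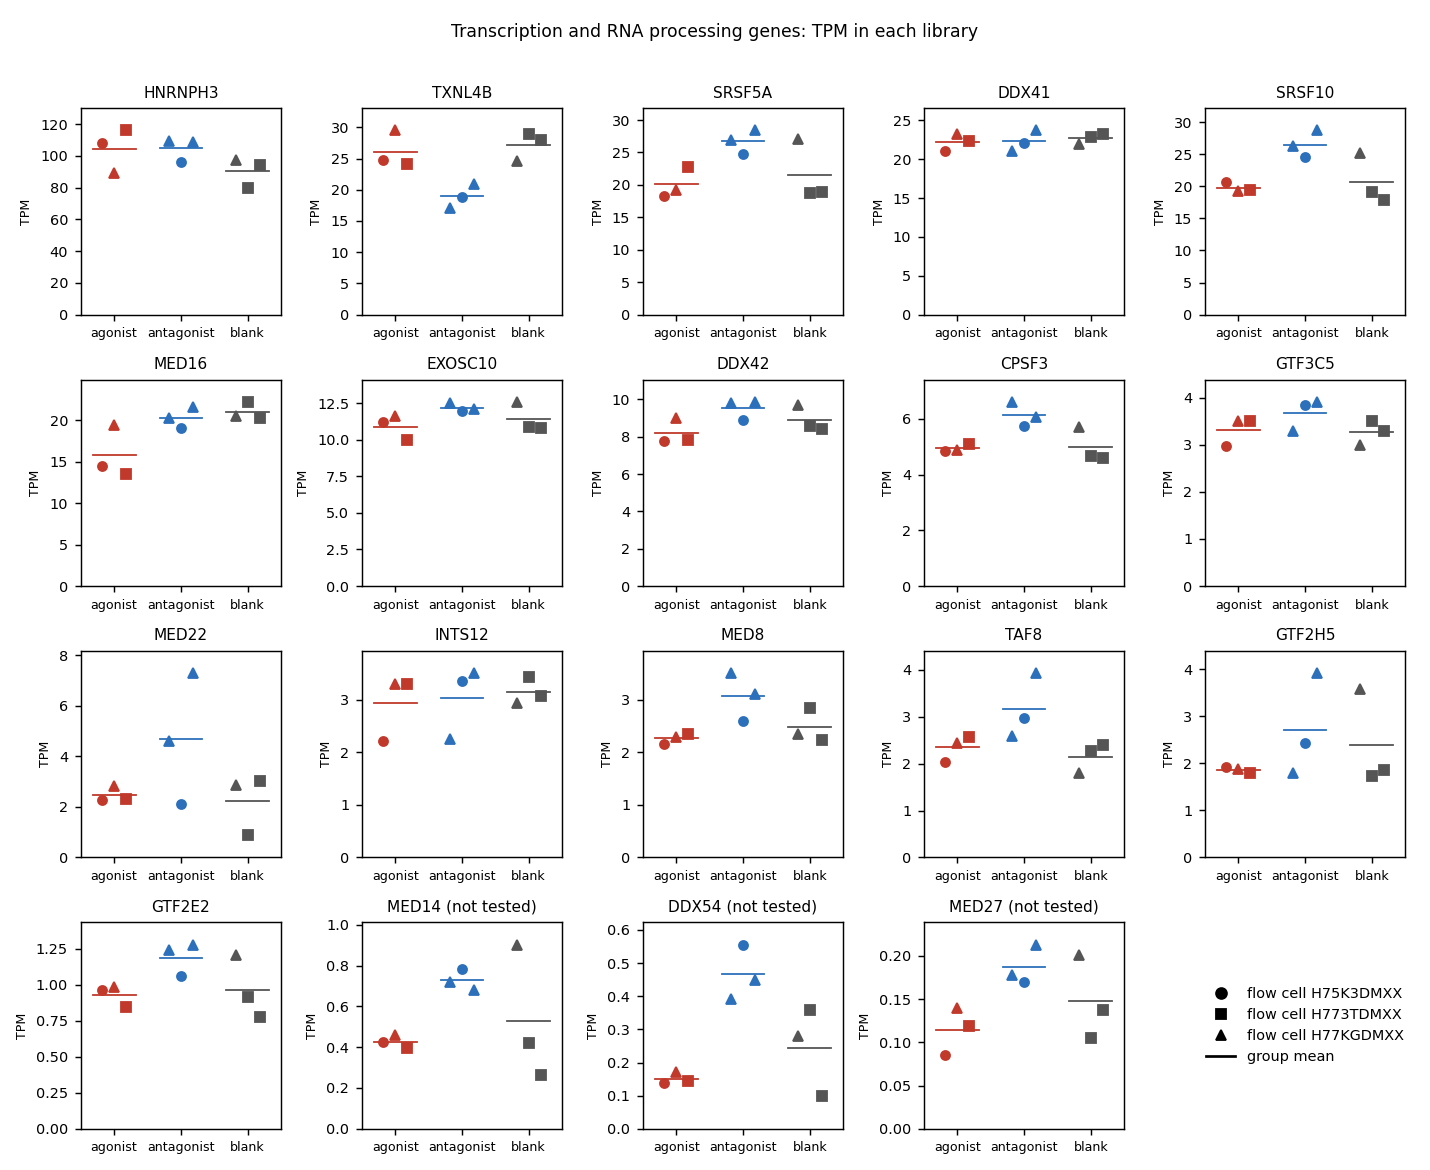
TPM of each of the 19 members (vertical axes from 0, each gene with its own scale) in agonist, antagonist and blank libraries; points are libraries, their shape gives the flow cell and the line is the group mean of 3 libraries. TXNL4B is lowest in the 3 antagonist libraries, at 17.1 to 21.0 TPM, and SRSF10 and SRSF5A are high in those libraries and in blank replicate 1.

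TXNL4B was the only member called in more than 1 comparison. It was taken by its own name, with earlier results of these data known, so its calls are not free of that choice. It encodes a thioredoxin-like protein of the family of TXNL4A, a component of the U5 snRNP, and the human protein takes part in pre-mRNA splicing. Its level was 24.8, 29.5 and 24.1 TPM in agonist libraries 1, 2 and 3, 17.1, 18.8 and 21.0 TPM in antagonist libraries and 24.6, 29.0 and 28.0 TPM in blank libraries. Every antagonist library lay below every agonist and every blank library, whereas agonist and blank libraries overlapped. Group means were 26.1 ± 2.9 TPM in agonist cells, 19.0 ± 2.0 TPM in antagonist cells and 27.2 ± 2.4 TPM in blank cells (SD, n = 3 each). TXNL4B fell with the antagonist relative to blank (log2 fold change -0.50 ± 0.11 SE, adjusted p = 0.0355 by limma). It rose with the agonist relative to the antagonist (log2 fold change 0.44 ± 0.11 SE, adjusted p = 0.0217 by limma). Fold changes here and below are on the scale of TPM + 1. Both comparisons use the same antagonist libraries. For agonist against blank the value was -0.06, with a 95% interval before adjustment of -0.31 to 0.19.

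TXNL4B moved against the bulk of the table, a contrast that is likewise not free of its choice by name. The 832 tested genes had a median log2 fold change of 0.12 between antagonist and blank cells, and TXNL4B lay at -0.61 relative to it. Between agonist and antagonist cells that median was -0.21, and TXNL4B lay at 0.65 relative to it. Of the tested genes, 7 (0.841%) were called lower with the antagonist than in blank cells, against 10.2% called higher, and 14 (1.68%) were called higher with the agonist than with the antagonist. Within H75K3DMXX the agonist library exceeded the antagonist library by 0.38 on the log2 scale, and within H77KGDMXX by 0.61. Within H77KGDMXX the antagonist libraries differed from the blank library by -0.36. With the flow cell as a term in the model the sizes were 0.44 and -0.47 and neither passed (limma, adjusted p = 0.0573 for agonist against antagonist and 0.135 for antagonist against blank). Over all 12 other settings the adjusted p in limma was 0.00916 to 0.0573 in the first comparison and 0.00153 to 0.135 in the second. The call for agonist against antagonist was lost without agonist replicate 1 and without any one of the antagonist replicates, and the call for antagonist against blank without any one of the antagonist replicates and of blank replicates 2 and 3, with log2 fold changes of 0.35 to 0.51 and -0.57 to -0.43 over all fits without 1 library (limma, adjusted p up to 0.0748 and 0.153). RefSeq's goose annotation, made on a Taihu goose assembly and used for names and neighbours alone, places TXNL4B across TRMT10C and SENP7, and whether the deposited values use strand is not stated. SENP7, a SUMO protease, was at 1.10 ± 0.22, 1.54 ± 0.32 and 1.26 ± 0.15 TPM in agonist, antagonist and blank cells. TRMT10C, a subunit of mitochondrial RNase P, was at 92.7 ± 8.1, 106 ± 14 and 98.3 ± 12 TPM in agonist, antagonist and blank cells. Its log2 fold changes were 0.11 with the antagonist against blank and -0.19 with the agonist against the antagonist, and neither passed (limma, adjusted p = 0.578 and 0.245). How reads were shared among these genes was not tested.

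Transcripts of 2 SR protein genes, SRSF10 and SRSF5A, were lower in every agonist library than in any antagonist library, as were 44.8% of all tested genes, and SRSF10 passed the test. SRSF10, an SR protein that represses splicing when dephosphorylated in heat-shocked human cells, was at 20.6, 19.2 and 19.4 TPM in agonist libraries, 26.3, 24.6 and 28.7 TPM in antagonist libraries and 25.2, 19.1 and 17.9 TPM in blank libraries. The agonist libraries all lay below the antagonist libraries. Blank replicate 1 lay within the antagonist range and the other blank libraries near the agonist ones. SRSF10 averaged 19.7 ± 0.77 TPM in agonist libraries and 26.5 ± 2.1 TPM in antagonist libraries (SD, n = 3 each). It fell in agonist relative to antagonist cells (log2 fold change -0.41 ± 0.12 SE, adjusted p = 0.0349 by limma). It stood at -0.20 relative to the median of all genes, and 23.9% of all genes were called lower in this comparison. The call was lost under upper quartile, median of ratios and quantile scaling, where the log2 fold change was -0.26 to -0.14, with the flow cell term (-0.32, limma, adjusted p = 0.0811, against 0.0103 to 0.366 over the 12 other settings) and without a filter on low values, and also without any one of the 3 agonist or 3 antagonist libraries.

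SRSF5A, the table's name for a gene of the SRSF5 kind, had nearly the same profile. It was at 18.3, 19.2 and 22.7 TPM in agonist libraries, 27.0, 24.8 and 28.4 TPM in antagonist libraries and 27.1, 18.7 and 18.9 TPM in blank libraries. The agonist and antagonist libraries did not overlap, and blank replicate 1 was again as high as the antagonist libraries. Its log2 fold change for agonist against antagonist was -0.40 with an interval of -0.72 to -0.08, which did not pass over all genes (limma, adjusted p = 0.0599). It was called in 2 of the 12 other settings, with only the 2 groups compared and with library weights. In those settings 225 and 369 of all 832 tested genes were called. SRSF5A was also called without blank replicate 1, as were CPSF3 and MED8 (limma, adjusted p = 0.0166 for SRSF5A). In that fit 269 of all 832 tested genes were called, against 213 with all libraries. No blank library enters the difference of agonist and antagonist, so its size did not change, while the spread estimated over all groups did. The ratio of SRSF10 to SRSF5A was 0.855 to 1.13 over the 9 libraries, close to 1 in every group.

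Against blank cells neither SR gene passed. For antagonist against blank, SRSF10 was at a log2 fold change of 0.35 and SRSF5A at 0.31 (limma, adjusted p = 0.0837 and 0.165). Without blank replicate 1 both were called, together with CPSF3, at log2 fold changes of 0.50 for SRSF10, 0.48 for SRSF5A and 0.34 for CPSF3. In that fit 212 of all 832 tested genes were called. The remaining blank libraries carry H773TDMXX, which no antagonist library carries, so group and flow cell cannot be told apart there. Within H77KGDMXX the antagonist libraries differed from blank replicate 1 by 0.12 for SRSF10, 0.03 for SRSF5A and 0.13 for CPSF3. With the flow cell term none of these genes passed (limma, adjusted p = 0.314, 0.351 and 0.252). For agonist against blank the values were -0.05 for SRSF10 and -0.09 for SRSF5A. Within H773TDMXX the agonist library differed from the blank libraries by 0.07 for SRSF10 and 0.26 for SRSF5A, and within H77KGDMXX from blank replicate 1 by -0.38 and -0.48. Each of these cells holds 1 agonist library, so a flow cell and its libraries cannot be told apart.

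A ratio within a library does not depend on how libraries are scaled to each other. The ratio of TXNL4B to SRSF10, chosen after their values were seen and given without a test, was 1.20, 1.54 and 1.24 in agonist libraries, 0.649, 0.766 and 0.733 in antagonist libraries and 0.976, 1.52 and 1.56 in blank libraries. The antagonist libraries were below all 6 others, of which blank replicate 1 was the lowest. Against the agonist libraries this had to follow from the levels above. TXNL4B was lower and SRSF10 higher in every antagonist library than in any agonist library. The ratio is therefore no separate evidence for either gene, and does not show how SRSF10 alone stood under another scaling.

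**Figure D2:**
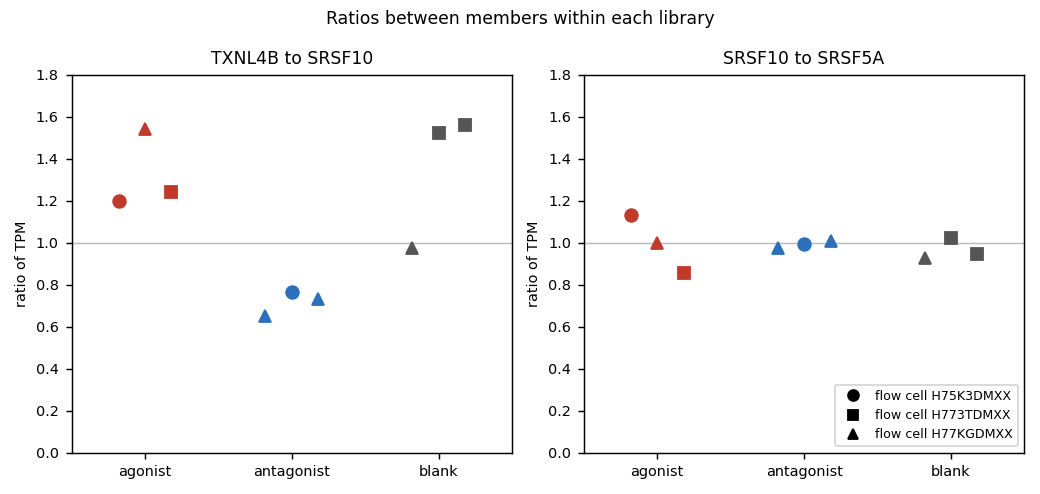
Ratio of TPM between pairs of members within each library (vertical axes from 0), by group, with point shapes for flow cells and a line at 1. TXNL4B to SRSF10 is below 0.8 in the 3 antagonist libraries and at 0.976 to 1.56 in the others, while SRSF10 to SRSF5A stays between 0.855 and 1.13 in all 9.

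Among the other RNA processing genes, CPSF3, the endonuclease that cuts pre-mRNA ahead of polyadenylation, followed the SR genes at a lower level. It was at 4.85, 4.88 and 5.10 TPM in agonist libraries, 6.61, 5.73 and 6.06 TPM in antagonist libraries and 5.70, 4.65 and 4.59 TPM in blank libraries. All antagonist libraries were above all others, with blank replicate 1 the nearest. The log2 fold changes were -0.26 for agonist against antagonist and 0.26 for antagonist against blank, and neither passed (limma, adjusted p = 0.0663 and 0.11). CPSF3 overlaps ITGB1BP1 in the RefSeq annotation, a gene at 13.3 ± 2.2, 15.4 ± 1.4 and 9.22 ± 0.73 TPM in agonist, antagonist and blank cells that was called higher with the antagonist than in blank cells (log2 fold change 0.68, limma, adjusted p = 0.0242). Its part in the CPSF3 value was not tested.

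The helicases and the exosome gave no call in the fit of the report. DDX41, a helicase associated with spliceosomes and with sensing of cytosolic DNA in mammals, was at 21.0, 23.3 and 22.4 TPM in agonist, 21.0, 22.1 and 23.7 TPM in antagonist and 21.9, 22.8 and 23.3 TPM in blank libraries. Its highest library was 1.13 times its lowest, the smallest such ratio among the 19 members. The intervals of its log2 fold change were -0.21 to 0.15 for agonist against blank, -0.21 to 0.15 for antagonist against blank and -0.18 to 0.18 for agonist against antagonist. DDX41 lay at -0.0024 for agonist against antagonist. It lay at 0.20 and 0.26 after upper quartile and median of ratios scaling, which moved the median of all genes to -0.04 and 0.0049, and passed in neither (limma, adjusted p = 0.113 and 0.0715). It overlaps DOK3, an adaptor of immune receptors at 1.18 ± 0.67, 2.40 ± 0.54 and 1.45 ± 0.35 TPM in agonist, antagonist and blank cells that was called lower with the agonist than with the antagonist (log2 fold change -0.67, limma, adjusted p = 0.0387). Its part in the DDX41 value was not tested. DDX42, a helicase that works with the SF3B complex, was at 7.77 to 8.98 TPM in agonist, 8.91 to 9.87 TPM in antagonist and 8.42 to 9.71 TPM in blank libraries. EXOSC10, the exoribonuclease of the nuclear exosome, was at 9.98 to 11.6 TPM in agonist, 12.0 to 12.5 TPM in antagonist and 10.8 to 12.6 TPM in blank libraries. For agonist against antagonist their log2 fold changes were -0.20 and -0.15, close to the median of all genes.

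HNRNPH3 and INTS12 gave no call in any comparison in the fit of the report. HNRNPH3 was at 108, 89.0 and 116 TPM in agonist libraries, 109.5, 96.0 and 109 TPM in antagonist libraries and 97.5, 79.5 and 94.1 TPM in blank libraries. The groups overlapped, at log2 fold changes of 0.20 for agonist against blank, 0.22 with the antagonist against blank and -0.01 with the agonist against the antagonist, the first the largest positive value of the members in that comparison. INTS12, a PHD finger subunit of the Integrator complex, which processes small nuclear RNAs and ends short transcripts, was at 2.21 to 3.29, 2.24 to 3.50 and 2.93 to 3.43 TPM in agonist, antagonist and blank libraries. Its intervals were -0.42 to 0.25, -0.39 to 0.28 and -0.37 to 0.30 in the same order of comparisons, all including 0.

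For agonist against antagonist, the 3 tested Mediator subunits had log2 fold changes of -0.60 to -0.31. The median of all genes was -0.21, and 700 of all 832 were below 0. In limma 0 of the 3 subunits passed, against 25.6% of all tested genes. An unadjusted p under 0.05 was found for 2 of them, against 43.1% of all tested genes. MED16, a subunit of the tail that contacts activators, was at 14.5, 19.4 and 13.5 TPM in agonist libraries, 20.3, 19.0 and 21.6 TPM in antagonist libraries and 20.5, 22.2 and 20.2 TPM in blank libraries. Agonist replicates 1 and 3 were the lowest of the 9, and agonist replicate 2 lay within the antagonist range. Its log2 fold change for agonist against blank was -0.40 with an interval of -0.68 to -0.13, the most negative of the members, and it did not pass (limma, adjusted p = 0.275). Without agonist replicate 2, its highest agonist library, MED16 was called lower with the agonist. It was at -0.55 against blank (limma, adjusted p = 0.0119) and -0.50 against the antagonist (limma, adjusted p = 0.00981). In that fit 67 and 295 of all 832 tested genes were called in these comparisons, against 0 and 213 with all libraries. Within flow cells the agonist library differed from the blank ones by -0.62 in H773TDMXX and by -0.07 in H77KGDMXX.

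MED8 and MED22 belong to the head of Mediator, which binds RNA polymerase II. MED8 was at 2.15, 2.29 and 2.34 TPM in agonist libraries, 3.50, 2.60 and 3.11 TPM in antagonist libraries and 2.35, 2.84 and 2.23 TPM in blank libraries. The agonist libraries lay below all antagonist libraries, at a log2 fold change of -0.31 that did not pass (limma, adjusted p = 0.0546), was called without antagonist replicate 2, and became 0.02 after quantile normalization. MED22 had the widest range of any member over the 9 libraries, its highest value 8.24 times its lowest, at 2.26, 2.84 and 2.33 TPM in agonist libraries, 4.62, 2.12 and 7.29 TPM in antagonist libraries and 2.86, 0.886 and 3.01 TPM in blank libraries. Its log2 fold changes had the largest sizes of any member, 0.77 with the antagonist against blank and -0.60 with the agonist against the antagonist, and neither passed (limma, adjusted p = 0.165 and 0.203). MED22 overlaps the ribosomal protein gene RPL7A in the RefSeq annotation. The deposited table does not list RPL7A, so its part in the MED22 value could not be examined.

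The Mediator scaffold subunit MED14 and the tail subunit MED27 stayed below 1 TPM. MED14 was at 0.424, 0.462 and 0.394 TPM in agonist libraries, 0.720, 0.782 and 0.682 TPM in antagonist libraries and 0.903, 0.420 and 0.264 TPM in blank libraries. Blank replicate 1 was the highest of the 9 and blank replicate 3 the lowest. MED27 was at 0.0848 to 0.140, 0.170 to 0.213 and 0.105 to 0.201 TPM in agonist, antagonist and blank libraries. DDX54, a nucleolar helicase whose human form represses nuclear receptors, was also under the limit, at 0.137, 0.171 and 0.144 TPM in agonist libraries, 0.393, 0.556 and 0.448 TPM in antagonist libraries and 0.279, 0.358 and 0.0988 TPM in blank libraries. All 3 genes were lower in every agonist library than in any antagonist library. Of the tested genes, a set that leaves these 3 out, 44.8% were so. Without a filter on low values, DDX54 was called lower with the agonist (log2 fold change -0.35 against the antagonist, limma, adjusted p = 0.0352). MED14 and MED27 were not called (limma, adjusted p = 0.188 and 0.102). In that fit 182 of all 1371 genes were called in either direction. All DDX54 values were under 1 TPM, less than the 1 added before taking log2.

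The general transcription factors and TAF8 gave no call in the fit of the report. TAF8, a TFIID subunit, was at 2.04, 2.44 and 2.57 TPM in agonist libraries, 2.59, 2.97 and 3.93 TPM in antagonist libraries and 1.81, 2.26 and 2.40 TPM in blank libraries. Its antagonist libraries lay above all others, and its blank replicate 1 was the lowest of the 9, unlike the SR genes. The log2 fold change of TAF8 was 0.39 for antagonist against blank (limma, adjusted p = 0.0823) and -0.30 for agonist against antagonist (limma, adjusted p = 0.106).

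GTF2H5, the small TFIIH subunit that also serves DNA repair, was at 1.92, 1.89 and 1.79 TPM in agonist libraries, 1.79, 2.43 and 3.92 TPM in antagonist libraries and 3.59, 1.73 and 1.85 TPM in blank libraries. Antagonist replicate 3 and blank replicate 1 stood apart from 7 libraries between 1.73 and 2.43 TPM. GTF2E2, a TFIIE subunit, was at 0.843 to 0.984 TPM in agonist, 1.06 to 1.28 TPM in antagonist and 0.774 to 1.21 TPM in blank libraries. GTF3C5, a TFIIIC subunit that serves RNA polymerase III at tRNA genes, was at 2.97 to 3.50, 3.30 to 3.91 and 2.99 to 3.50 TPM in agonist, antagonist and blank libraries. In the same annotation GTF2E2 overlaps SMIM18 and RBPMS, GTF2H5 overlaps SERAC1, TAF8 overlaps CCND3 and others and MED27 overlaps NTNG2, so values of these genes are uncertain to that extent. Of these partners the deposited table listed RBPMS alone, at 14.0 ± 1.8, 19.1 ± 0.73 and 15.8 ± 3.8 TPM in agonist, antagonist and blank cells. Its log2 fold change for agonist against antagonist was -0.43, which did not pass (limma, adjusted p = 0.0618). Its part in the GTF2E2 value was not tested. The GTF genes had log2 fold changes of -0.33 (GTF2H5), -0.18 (GTF2E2) and -0.11 (GTF3C5) for agonist against antagonist, and none passed (limma, adjusted p = 0.268, 0.193 and 0.367).

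**Figure D3:**
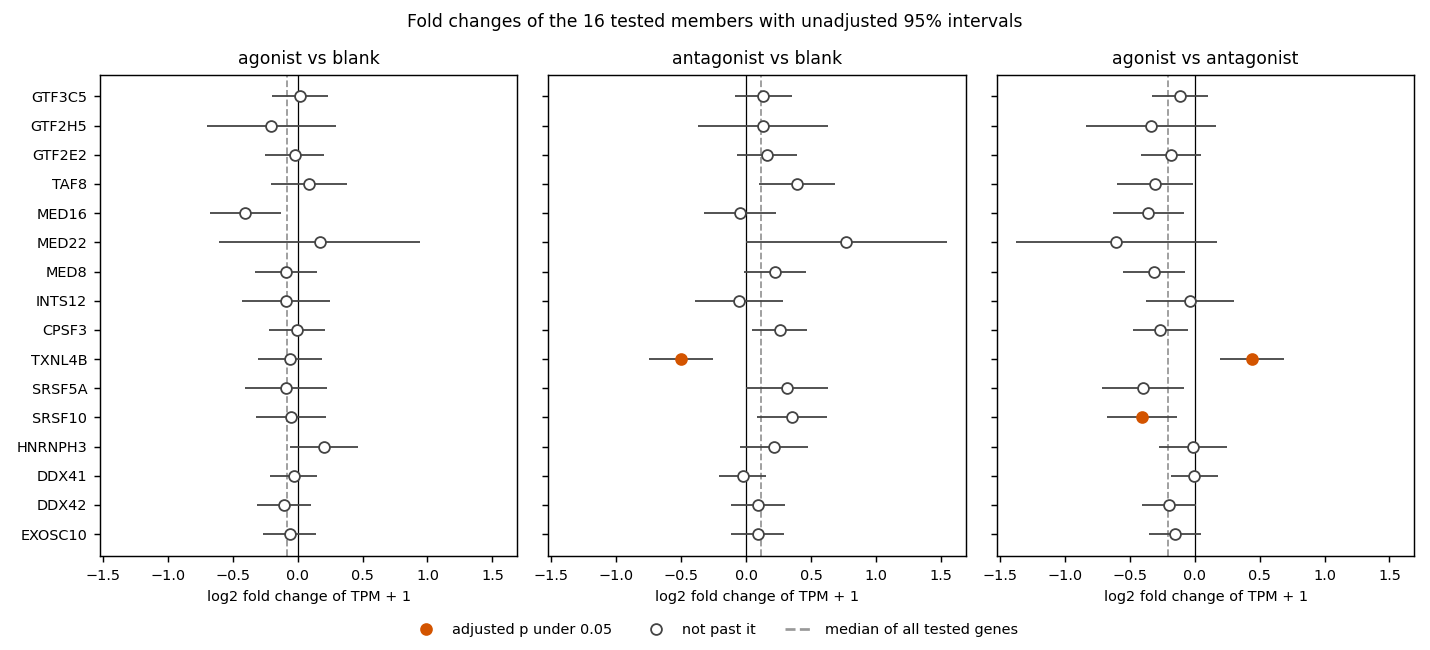
Log2 fold change of TPM + 1 (horizontal axes) of the 16 tested members in the 3 comparisons, with 95% intervals before adjustment; filled points have an adjusted p under 0.05 in limma and the dashed line is the median of all 832 tested genes. TXNL4B is called in 2 comparisons, against the direction of the dashed line, and SRSF10 in 1.

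Calls among the members were few. For agonist against antagonist, 2 of the 16 tested members passed (12.5%), TXNL4B higher and SRSF10 lower, against 25.6% of all tested genes, and 7 had an unadjusted p under 0.05, against 43.1% of all genes. For antagonist against blank, 1 of 16 passed (6.25%), TXNL4B, against 11.1% of all genes, and 4 had an unadjusted p under 0.05, against 30.3% of all genes. For agonist against blank, 0 of 16 passed in limma, and 1 member, MED16, had an unadjusted p under 0.05. No gene of the table passed there (0%), and 12.3% had an unadjusted p under 0.05. The share of members called was not above that of the table in any comparison. TXNL4B, unlike the other members, was taken by its own name and not by a prefix, with earlier results of these data known. Its calls in these counts are therefore not free of that choice. Among the members caught by a prefix, SRSF10 for agonist against antagonist was the only call.

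In direction the members followed the table. For agonist against antagonist, 15 of 16 had values below 0, with a median of -0.23 beside -0.21 for all genes. Groups did not overlap for 8 members (50.0%), 7 of them lower, against 48.0% of all genes (3.12% higher and 44.8% lower). The 15 and the 7 include GTF2E2, which entered the test through the antagonist libraries and blank replicate 1, so its place in these counts is not free of the filter. The direction depended on scaling: 6 members were above 0 with upper quartile scaling, 7 with median of ratios scaling and 9 with quantile normalization. For antagonist against blank, 12 of 16 were above 0 at a median of 0.15 beside 0.12, and groups did not overlap for 3 members (18.8%), 2 higher and 1 lower, against 33.9% of all genes (26.2% higher and 7.69% lower). The 12 again include GTF2E2. With quantile normalization 6 members were above 0 in this comparison. For agonist against blank, 12 of 16 were below 0 and 4 above, at a median of -0.06 beside -0.08, and 1 member, MED16, did not overlap (6.25%) against 11.9% of all genes. That direction also depended on the scaling, with 14, 11 and 13 members above 0 after upper quartile, median of ratios and quantile scaling, and on blank replicate 1, without which 9 were above 0. Blank replicate 1 was the highest blank library in 8 of 16 members (50.0%) and in 65.6% of all tested genes.

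Compared by subfamily, the medians for agonist against antagonist were -0.40 for the 2 SR genes, -0.36 for the 3 tested Mediator subunits, -0.18 for the 3 GTF genes and -0.10 for the 2 tested DDX genes. The 7 tested transcription genes (GTF, TAF and MED) had 0 calls and a median of -0.31, and the 9 RNA processing genes had 2 calls (22.2%) and a median of -0.15, beside 25.6% called and a median of -0.21 among all tested genes, and the classes were not tested against each other. For antagonist against blank the medians were 0.33 for the SR genes, 0.23 for Mediator, 0.13 for GTF and 0.03 for DDX. For agonist against blank they were -0.07, -0.09, -0.02 and -0.07. The GTF medians of -0.18 and -0.02 are the values of GTF2E2, which entered the test through the libraries in which it was high. GTF2E2 is also among the 7 transcription genes, and TXNL4B, added by name, is among the 2 calls of the RNA processing genes. Adding 1 to TPM also brings values of genes at low TPM nearer to 0, so the order of these medians depends in part on level. With 0.1 added instead, GTF2E2 moved from 0.16 to 0.29 for antagonist against blank, and SRSF10 from 0.35 to 0.37. GTF2H5 moved from -0.33 to -0.45 for agonist against antagonist. With 1 to 3 genes in each, the subfamily medians describe the genes and no difference between subfamilies was tested.

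Other genes of the machinery outside the prefixes were looked up from 4 lists. Of 303 symbols, 25 were in the table and 18 were tested, and 0 passed in any of the 3 comparisons in limma. Of all tested genes, 0%, 11.1% and 25.6% passed for agonist against blank, antagonist against blank and agonist against antagonist. At an unadjusted p under 0.05 there were 3, 4 and 5 of the 18 genes in that order, against 12.3%, 30.3% and 43.1% of all genes. Their median log2 fold changes were -0.04, 0.12 and -0.19 in that order, near those of all genes. Among initiation and elongation factors (7 in the table, 6 tested), TADA3 and TADA2B, subunits of histone acetyltransferase complexes, were the most abundant. TADA3 was at 43.0 ± 12, 53.1 ± 1.1 and 58.0 ± 1.6 TPM in agonist, antagonist and blank cells, and TADA2B had log2 fold changes of -0.24, -0.10 and -0.14 in the same order of comparisons.

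Among 8 tested spliceosome genes outside the prefixes, the most abundant were SYF2 and SLU7, which act around the catalytic steps of splicing. SYF2 was at 43.2 ± 5.4, 38.6 ± 1.3 and 39.2 ± 2.3 TPM in agonist, antagonist and blank cells, and SLU7 at 13.5 ± 1.2, 14.8 ± 0.72 and 13.3 ± 1.3 TPM. The median of the 8 for agonist against antagonist was -0.23, and 7 of 8 were below 0. Of all 832 tested genes, 700 were below 0 in this comparison, at a median of -0.21. SYF2 was above 0, at 0.15, and did not pass (limma, adjusted p = 0.267). The export adaptor ALYREF was at 39.4 ± 4.4, 33.9 ± 1.4 and 35.1 ± 2.4 TPM, and THOC7, of the THO export complex, had log2 fold changes of 0.0013, 0.08 and -0.08 in that order of comparisons. ZFP36L1, which promotes decay of AU-rich mRNAs and was the only tested gene of the 5 RNA decay genes in the table, was at 69.5, 114 and 46.1 TPM in agonist libraries, 109, 96.4 and 83.8 TPM in antagonist libraries and 119, 125 and 128 TPM in blank libraries. Its blank libraries lay above all treated libraries, and its log2 fold change for agonist against blank was -0.79 (limma, adjusted p = 0.275).

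**Figure D4:**
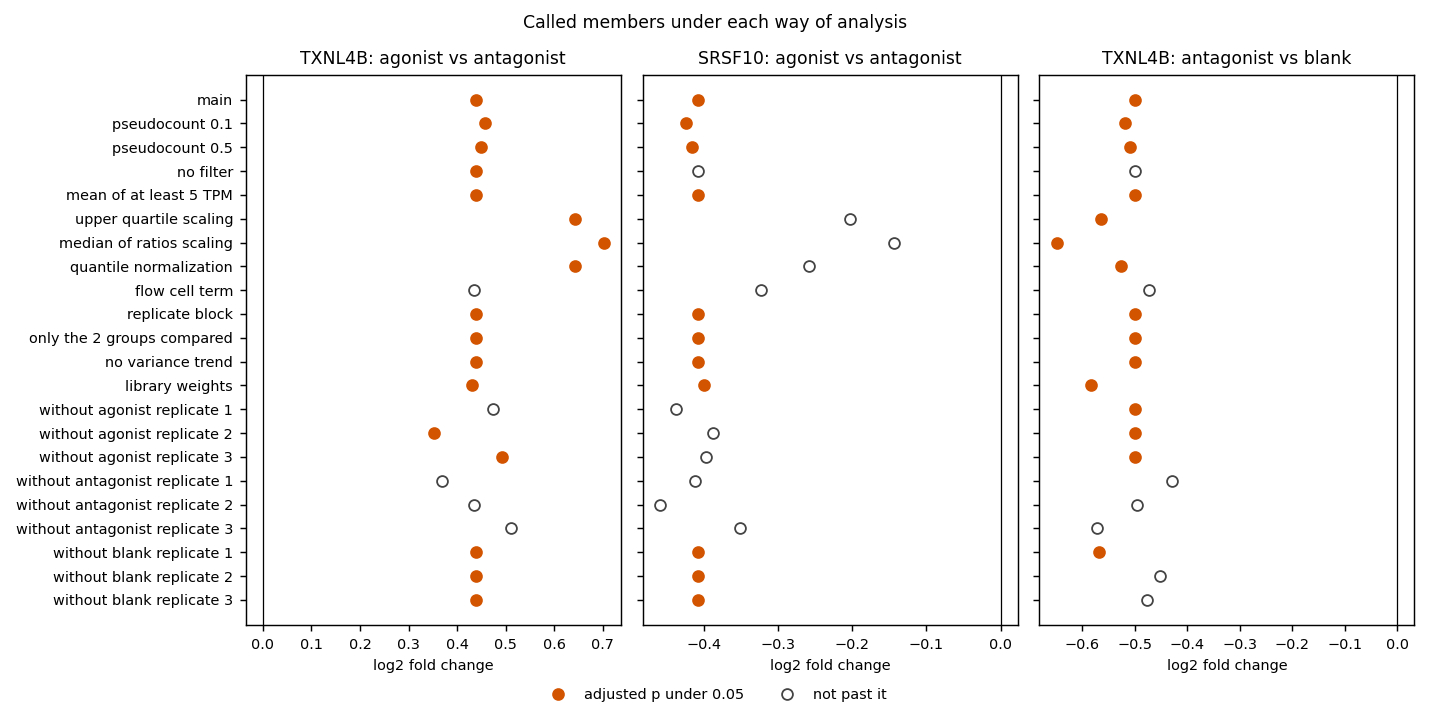
Log2 fold change (horizontal axes) of the called members under the fit of the report and each other way of analysis, named on the vertical axis; filled points have an adjusted p under 0.05 in limma. TXNL4B keeps its sign and passes in 11 of 12 other settings for agonist against antagonist and in 10 of 12 for antagonist against blank, while SRSF10 passes in 7 of 12.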

How the data were processed

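The deposited values are TPM, computed by the authors, with a column for each of 9 libraries. The submitters' processing notes list StringTie 1.2.2, Cuffdiff, Cufflinks 2.2.1, TopHat2 2.1.0 and CASAVA 1.8.2 and do not say what each did. Per the labels' protocols, Trizol was used for RNA and a NEBNext Ultra kit for libraries. Build, annotation and strand setting: not given in the sources used here. Values were taken as log2(TPM + 1) for the 832 genes reaching 1 TPM in 3 or more libraries. A linear model of the 3 groups over 9 libraries was fitted with limma 3.58.1 in R 4.3.3 (empirical Bayes with a variance trend), with Benjamini-Hochberg adjustment over all 832 genes in each comparison, and an adjusted p under 0.05 was called. With 3 libraries a group, exact permutation (smallest two-sided p 0.1) was left out. The scripts were tested on simulated data.

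The members and lists were chosen with earlier results of these data known. Genes were named by rule: TXNL4B, called members, the 3 largest values in each direction of each comparison and the 2 most abundant genes of each subfamily; from the other lists, called genes or else the 2 most abundant. The ratios, and all remaining members, were added after their values were seen. Alternatives were pseudocounts, filters, scalings, flow cell and replicate terms, other fits and leaving out each library. RefSeq symbols matched 17 of 19 members, of which 9 overlap another gene.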

Additional observations from a re-analysis of the deposited data

How the results depend on the processing

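The number of members called for agonist against antagonist, 2 in the report, was 1 with upper quartile, median of ratios or quantile scaling, 0 with the flow cell term, 7 with library weights and 0 to 5 without 1 library, the highest without blank replicate 1. Of all 832 tested genes, 213 were called in the report, 101, 108 and 52 with these scalings, 132 with the flow cell term, 369 with library weights and 269 without blank replicate 1. The members called with library weights were CPSF3, DDX42, MED8, MED16, SRSF5A, SRSF10 and TXNL4B. For antagonist against blank, 1 in the report, it was 0 without a filter on low values and with the flow cell term, 7 with library weights and 0 to 4 without 1 library, the highest again without blank replicate 1. Of all 832 genes, 92 were called in the report, 0 with the flow cell term, 348 with library weights and 212 without blank replicate 1, and 14 of 1371 without a filter. Here the members called with library weights were CPSF3, GTF2E2, HNRNPH3, MED22, SRSF5A, SRSF10 and TXNL4B. For agonist against blank it was 0 in all 12 other settings and 0 to 1 without 1 library, where the gene called was MED16 without agonist replicate 2, beside 67 of all 832 genes. The replicate number as a block left these counts at 2, 1 and 0, with 166, 27 and 0 of all 832 genes called. Deviations from group means correlated across genes at -0.12 to 0.22 between same-numbered libraries of different groups. Between differently numbered ones the correlation was -0.25 to 0.19. With 3 libraries a group these values cannot settle whether the numbers pair the libraries. For the 48 values of tested members, 92 of 987 recomputed values changed sign, none of them called and none above 0.271 in size on the log2 scale. Of these, 3 involved an interval that did not include 0: DDX41 for agonist against antagonist at 0.20 and 0.26 with upper quartile and median of ratios scaling, and MED8 at 0.0171 with quantile normalization. The cause was not tested. Calls were gained in 21 recomputed values, 11 with library weights and 6 without blank replicate 1, and lost in 23. The unknown depth limits members under 1 TPM most, and intervals of MED22 and GTF2H5 are the widest.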
